A study of Mus musculus with 11 samples.

Results

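The 10 genes described here encode apolipoproteins and 1 protein of lipoprotein assembly, measured in newborn mouse liver with and without forced Notch signalling. They are Apoa1, Apoa2, Apoa4, Apoa5, Apob, Apoc3, Apoe, Apoh, Apom and Mttp. They were chosen by name, and every probe on the array that carried one of these symbols was taken. That gave 14 probes of 41174 distinct probes, and 10 genes of 15945 genes tested. All 14 probes were well above background on all 11 arrays, so no member was lost to the filter on dim probes.

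All pups were on a hybrid 129 x C57BL/6 background and all carried Rosa26-lsl-NICD, an allele that makes the active intracellular part of Notch once Cre removes a stop cassette. Controls carried this allele alone. Mutants also carried AFP-Cre, in which the alpha-fetoprotein promoter drives Cre. No group carried AFP-Cre without Rosa26-lsl-NICD, so an effect of Cre itself cannot be told apart from that of NICD. Whole liver was taken at the day of birth (day 0) from 2 controls and 3 mutants, and at day 2 from 3 controls and 3 mutants. The labels do not say that the arrays of a group came from separate litters, so the p-values measure the spread between these arrays. In bulk liver, fewer cells of a type and less RNA per cell cannot be told apart.

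Lipoproteins carry lipids through the blood. The liver loads triglyceride onto apolipoprotein B with the help of the microsomal transfer protein Mttp and secretes the particle as very low density lipoprotein (VLDL). Apolipoproteins A-I and A-II form the shell of high density lipoprotein (HDL), and the small exchangeable apolipoproteins C-III, A-V and E set how fast lipases and receptors clear the particles. The liver is the main source of most of these proteins, and suckling exposes it to a sudden load of milk fat.

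Levels are log2 signal relative to the 75th percentile of each array, so a value of 0 is the brightness of a spot at that percentile and 1 unit is a doubling. Differences are mutant minus control unless stated, with a standard error (SE). They come from a limma fit over all 11 arrays, with Benjamini-Hochberg adjustment over the 15945 genes. A gene is said to have fallen or risen where the adjusted p was under 0.05. Levels of different genes are not set against each other, since probes differ in how brightly they bind.

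The probes that carry the results are given by position on the mm8 build used in the array files. An annotation of that build was not used here, so exon and UTR were not assigned. Apoa1 (chr9:45980833-45980892), Apoc3, Apoa4 and Apoa5 lie within 1 cluster on chromosome 9. Apoe lies at chr7:18854905-18854964, Apoa2 at chr1:173062402-173062461, Apoh at chr11:108230386-108230445, Apom at chr17:34738158-34738217 and Mttp at chr3:138032371-138032430. Genes with several probes allow the same transcript to be read more than once. The sequences below are those of probes that repeat a measurement or that cross a gap in the genome, each 60 bases long and written 5′ to 3′. Apoa5 was read at chr9:46021491-46021550 by the probe printed and, more brightly, at chr9:46021994-46022053 by another probe. The 3 Apob probes lie at chr12:8037943-8038002, chr12:8042336-8042395 and chr12:8042396-8042455, so the last pair abut. The 2 Apoc3 probes, on the minus strand at chr9:45984265-45984324 and chr9:45984275-45984334, share 50 bases, printed in capitals, and are not separate evidence. The Apoa4 probe aligned over 744 bases of genome (chr9:45992573-45993316), longer than the probe itself.
Apoa5 probe: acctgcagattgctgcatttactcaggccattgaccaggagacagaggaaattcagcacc
Apob upstream probe: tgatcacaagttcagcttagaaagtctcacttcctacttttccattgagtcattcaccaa
Apob middle probe: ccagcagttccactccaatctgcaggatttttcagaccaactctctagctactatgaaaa
Apob last probe: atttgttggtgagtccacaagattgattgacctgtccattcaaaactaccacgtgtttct
Apoc3 probe, lower coordinates: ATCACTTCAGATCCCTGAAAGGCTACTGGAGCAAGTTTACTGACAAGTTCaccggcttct
Apoc3 probe, higher coordinates: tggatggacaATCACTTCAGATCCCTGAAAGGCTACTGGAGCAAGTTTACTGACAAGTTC
Apoa4 probe: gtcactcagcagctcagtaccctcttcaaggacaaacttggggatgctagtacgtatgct

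Some properties of the arrays touch the results. The library labelled mutant day 0 replicate 3 stood apart: 1074 genes lay at least 2-fold beyond every other array, against 3 to 72 on the other arrays, and its correlation with the other mutant day 0 arrays was 0.952 to 0.954. By Xist and Y-linked genes, the day 0 controls were 2 males and the day 0 mutants 3 females, so at day 0 genotype and sex cannot be told apart within that day. Each day 2 group held 1 male and 2 females, so the mix of sexes also changed between the days in both genotypes. The bright end of the arrays also moved with one group. The 99.9th percentile stood 8.44 to 8.58 log2 units above the 75th on the day 2 mutant arrays, and 8.87 to 9.32 above it on the other 3 groups' arrays. The 99th percentile stood 6.28 to 6.4 above it on the day 2 mutant arrays and 6.64 to 6.77 on the day 2 controls, with the day 0 controls at 6.36 to 6.46 and the day 0 mutants at 6.52 to 6.64. Apoa1, Apoa2, Apoe and Apoh lay above the 99th percentile on every array. The part of this shift in the results of bright genes was not tested beyond the alternative scalings given below.

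Liver identity was clear from the levels of 9 tested hepatocyte markers, of which 4 fell in mutants over both days, with a median difference of -0.57. Alb was saturated on 11 arrays, Fgb on 5 and Ahsg on 1, so their levels there are lower bounds. The summed level of the other 6 markers ranged from 682 to 880 times the 75th percentile in day 2 controls and from 426 to 472 in day 2 mutants. At day 0 it ranged from 850 to 973 in controls and from 659 to 766 in mutants. This sum of 6 markers did not overlap between the genotypes at either day. The day 0 sums of all 9 markers did overlap, at 3120 to 3330 in controls and 2760 to 3580 in mutants. Day 0 differences of Alb, Fgb and Ahsg were 0.011, 0.031 and 0.099, so not all hepatocyte markers were lower at birth. All 8 bile duct markers rose over both days, with sums from 10.4 to 18.1 in day 2 controls and from 235 to 280 in day 2 mutants. Spp1, the brightest of the 8, made up most of the sum in day 2 mutants, with levels from 7.61 to 7.9. At day 0, 6 of the 8 rose, beside 1.51% of all genes tested, while Krt7 differed by -0.27 and Krt19 by 0.39. Of 9 tested erythroid markers 4 fell, and their day 2 sums were 174 to 281 in controls and 50.1 to 95 in mutants. Of 10 macrophage markers 5 fell. Beside these marker counts, 6.69% of all genes tested fell and 8.64% rose over both days. The part of these shifts in the apolipoprotein results was not tested.

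Over both days, 6 of the 10 members fell in mutants and none rose: Apoa5, Apob, Apoa1, Apom, Apoa2 and Apoh. Over all genes tested 6.69% fell and 8.64% rose. The median difference of the members was -0.5 and all 10 estimates were below 0, while the median over all genes was -0.051 and 56% were below 0. Apoa5 had the largest difference of the 10 (fell by 2.18, 4.54-fold). The differences of the other 5 that fell lay between 1.38-fold and 1.87-fold. Apoa5 and Apoa1 passed the test under all 23 alternative settings tried. The main fit took no account of slides. With the slide, which is also the replicate number, as a block the count of 6 was 3. Apoa2, Apob and Apoh then missed the threshold (adjusted p = 0.0522, 0.0553 and 0.0752). The count was 2 with quantile scaling. It was also 2 without control day 0 replicate 2, without control day 2 replicate 2 or without mutant day 2 replicate 2.

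**Figure D1:**
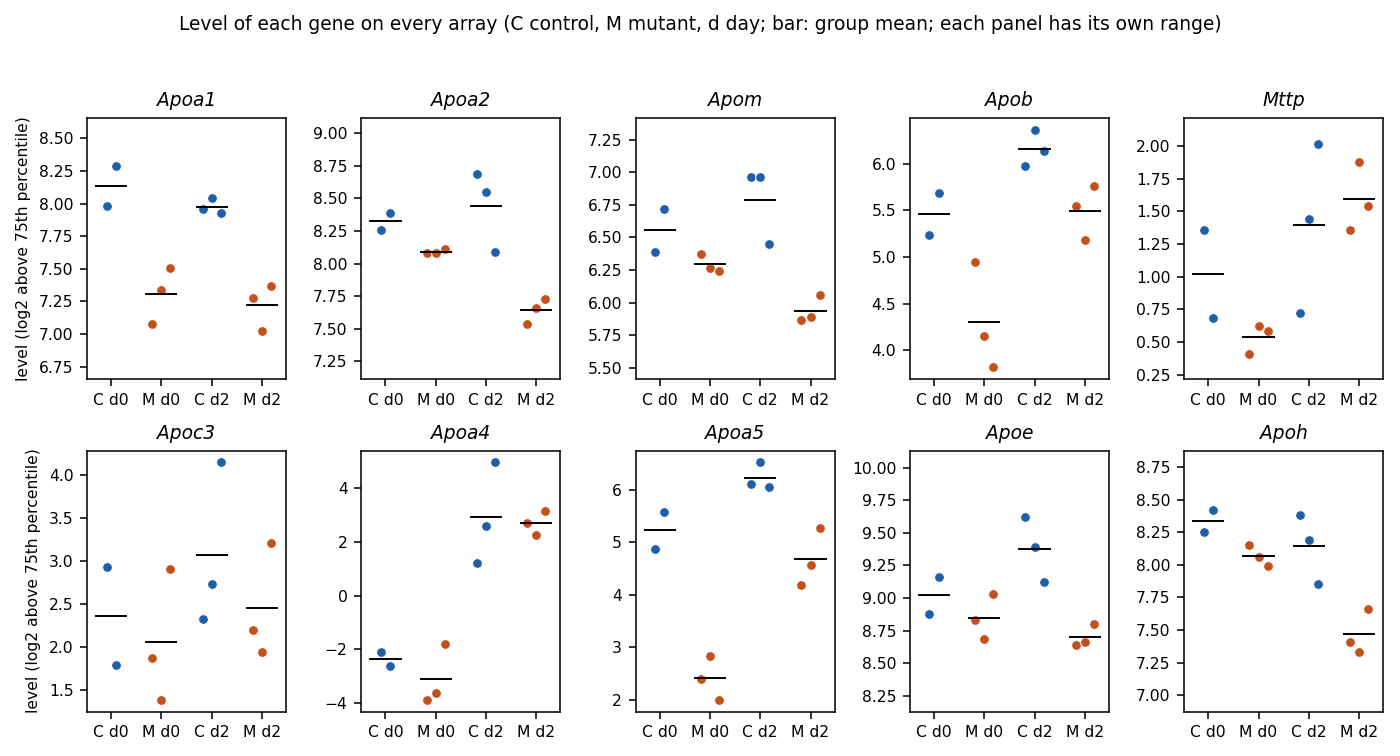
Level of each of the 10 genes on each of the 11 arrays, in log2 units above the array's 75th percentile, with control arrays in blue, mutant arrays in orange and a bar at each group mean (2 arrays for day 0 controls, 3 for each other group). For Apoa5 every mutant array lies below every control array of its day, and the Apoa4 arrays of day 2 all lie above those of day 0.

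Apoa5 encodes apolipoprotein A-V, a scarce plasma protein that promotes triglyceride clearance by lipoprotein lipase. At day 0 it stood at 4.88 and 5.57 in the controls and at 2.39, 2.84 and 2.00 in the mutants. At day 2 it stood at 6.11, 6.52 and 6.05 in the controls and at 4.19, 4.56 and 5.28 in the mutants. The groups did not overlap at either day, and the day 2 mutants lay near the day 0 controls. The difference was -2.82 ± 0.36 (SE) at day 0, a 7.05-fold fall (adjusted p = 0.00578). At day 2 it was -1.55 ± 0.33, a 2.93-fold fall (adjusted p = 0.0123). Apoa5 was the only member of 10 called at day 0, when 0.633% of all genes tested had fallen and 1.51% had risen. Without mutant day 0 replicate 3 the day 0 difference was -2.61 (adjusted p = 0.00854), and without control day 0 replicate 2 it was -2.47 and missed the threshold (adjusted p = 0.0808). Without mutant day 2 replicate 2 the day 2 difference was -1.49 (adjusted p = 0.051). Within slides, the mutant array lay below the control array on 2 of 2 slides at day 0 (-2.73 to -2.49) and on 3 of 3 at day 2 (-1.96 to -0.77). With pup sex as a covariate the day 0 difference was -3.31 (adjusted p = 0.0473). That fit takes its sex effect from the day 2 arrays alone, so it cannot separate sex from genotype at day 0.

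The dimmer Apoa5 probe, whose sequence is printed above, followed the brighter one across the 11 arrays (r = 0.978). It read 3.15 and 3.83 in day 0 controls and 0.45, 1.19 and 0.22 in day 0 mutants. At day 2 it read 4.69, 5.08 and 4.87 in controls and 3.45, 3.68 and 4.23 in mutants. The groups again did not overlap, and the falls were 2.87 and 1.09 log2 units (adjusted p = 0.00425 and 0.0447 over probes). Both probes gave a smaller fall at day 2. The change in the genotype difference between the days was 1.27 ± 0.49 on the brighter probe (unadjusted p = 0.0283, adjusted p = 0.294). On the other probe it was 1.78 ± 0.46 (unadjusted p = 0.00329, adjusted p = 0.177 over probes), so neither passed the threshold.

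Apoa1 encodes the main protein of HDL and the activator of the cholesterol-esterifying enzyme Lcat. It stood at 7.98 and 8.29 in day 0 controls and at 7.08, 7.34 and 7.51 in day 0 mutants. At day 2 it stood at 7.96, 8.04 and 7.93 in controls and at 7.28, 7.02 and 7.37 in mutants. All 6 mutant arrays lay below all 5 control arrays, and the level differed between the days by -0.16 in controls (adjusted p = 0.606) and -0.083 in mutants (adjusted p = 0.737). The difference over both days was -0.79 ± 0.12, a 1.73-fold fall (adjusted p = 0.00303). At day 0 it was -0.82 ± 0.18 (adjusted p = 0.0582), which missed the threshold, and was -0.93 (adjusted p = 0.0224) without mutant day 0 replicate 3. At day 2 it was -0.75 ± 0.17 (adjusted p = 0.0152). Each array carried 10 spots of the Apoa1 probe, which varied by 3.51% to 7.35% (coefficient of variation) within an array. The day 2 value depended on scaling: it was -0.29 (adjusted p = 0.267) with quantile scaling and -0.33 (adjusted p = 0.203) in the authors' deposited table. It also missed the threshold without control day 2 replicate 2 (adjusted p = 0.0577) or without mutant day 2 replicate 2 (adjusted p = 0.0654).

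Apoa2 encodes the second most abundant HDL protein. It stood at 8.26 and 8.39 in day 0 controls, at 8.08, 8.08 and 8.11 in day 0 mutants, at 8.69, 8.55 and 8.09 in day 2 controls and at 7.54, 7.66 and 7.73 in day 2 mutants. The groups did not overlap at either day, but the day 0 gap was small. The difference was -0.23 ± 0.19 at day 0 (adjusted p = 0.601) and -0.80 ± 0.17 at day 2 (adjusted p = 0.0113), and the change between the days, -0.57, did not pass the test (adjusted p = 0.343). Over both days it was -0.52 ± 0.12 (adjusted p = 0.0225), or -0.5 (adjusted p = 0.0522) with the slide as a block. It also missed the threshold without control day 0 replicate 1 or 2, control day 2 replicate 2 or mutant day 2 replicate 1 or 2 (adjusted p = 0.0517 to 0.0986). Across all 23 alternatives it passed in 15, with values from -0.69 to -0.29 and adjusted p up to 0.108. The day 2 value was -0.25 (adjusted p = 0.283) with quantile scaling and -0.31 (adjusted p = 0.232) in the authors' deposited table.

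Apom encodes apolipoprotein M, a lipocalin of HDL that carries sphingosine 1-phosphate. Its levels were 6.39 and 6.72 in day 0 controls, 6.37, 6.27 and 6.24 in day 0 mutants, 6.96, 6.96 and 6.45 in day 2 controls and 5.87, 5.89 and 6.06 in day 2 mutants. The day 0 groups were almost touching, and the day 2 groups were clearly apart. The difference was -0.26 ± 0.19 at day 0 (adjusted p = 0.579) and -0.85 ± 0.17 at day 2 (adjusted p = 0.0106). Over both days it was -0.55 ± 0.13 (adjusted p = 0.0204). It missed that threshold without control day 0 replicate 2, control day 2 replicate 1 or 2 or mutant day 2 replicate 2 (adjusted p = 0.0501 to 0.102). Of the day 2 falls in bright HDL genes, that of Apom moved less with scaling: it was -0.48 (adjusted p = 0.106) with quantile scaling and -0.51 (adjusted p = 0.0727) in the authors' deposited table, under the threshold in neither.

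Apob is the structural protein of VLDL, 1 copy of which stays with each particle. It stood at 5.23 and 5.69 in day 0 controls, at 4.95, 4.15 and 3.82 in day 0 mutants, at 5.97, 6.36 and 6.13 in day 2 controls and at 5.55, 5.18 and 5.76 in day 2 mutants. Mutants lay below controls of their day on every array, with the lowest level in mutant day 0 replicate 3. The difference over both days was -0.90 ± 0.22, a 1.87-fold fall (adjusted p = 0.0233). Without mutant day 0 replicate 3 it was -0.78 (adjusted p = 0.0225), and with the slide as a block -0.88 (adjusted p = 0.0553). It missed the threshold without control day 0 replicate 2, control day 2 replicate 2 or mutant day 2 replicate 2 (adjusted p = 0.0573 to 0.108), and with pup sex as a covariate (adjusted p = 0.111). At single days it missed the threshold, with -1.15 ± 0.33 at day 0 (adjusted p = 0.123) and -0.65 ± 0.29 at day 2 (adjusted p = 0.169). The day 2 value shrank to -0.28 with quantile scaling and -0.29 in the authors' deposited table. The 3 Apob probes printed above moved together (r = 0.985 to 1 across 11 arrays), with differences of -0.85, -0.9 and -0.9 over both days.

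Mttp loads lipid onto the growing apolipoprotein B chain. It stood at 1.36 and 0.68 in day 0 controls, at 0.41, 0.62 and 0.58 in day 0 mutants, at 0.72, 1.44 and 2.02 in day 2 controls and at 1.36, 1.88 and 1.54 in day 2 mutants. The day 0 mutants lay just under the controls and the day 2 groups overlapped. The difference was -0.48 ± 0.35 at day 0 (adjusted p = 0.565) and 0.20 ± 0.32 at day 2 (adjusted p = 0.711). The 95% confidence interval of the difference over both days ran from -0.67 to 0.39. The Apob estimate of -0.90 lay outside it, but the Apob interval, from -1.39 to -0.41, overlapped it. At day 0 the Mttp interval was wider, from -1.28 to 0.31. Whether the 2 genes differed in their response was not tested.

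Apoe, the ligand by which remnant particles bind the LDL receptor family, was among the brightest probes on the array. It stood at 8.88 and 9.16 in day 0 controls, at 8.83, 8.69 and 9.03 in day 0 mutants, at 9.62, 9.39 and 9.12 in day 2 controls and at 8.64, 8.66 and 8.80 in day 2 mutants. The day 0 groups overlapped and the day 2 groups did not. All 10 Apoe spots were saturated on control day 2 replicate 1, so the 9.62 there is a lower bound. The difference was -0.17 ± 0.19 at day 0 (adjusted p = 0.716) and -0.68 ± 0.17 at day 2 (adjusted p = 0.0258). With saturated spots left out, which drops that array's value, the day 2 difference was -0.56 (adjusted p = 0.0678), and with the slide as a block it was -0.68 (adjusted p = 0.0513). It was -0.097 (adjusted p = 0.643) with quantile scaling and -0.032 (adjusted p = 0.902) in the authors' deposited table. Leaving out any 1 mutant day 2 array, or control day 2 replicate 1 or 2, also ended the call (adjusted p = 0.0567 to 0.0944). Over both days Apoe missed the threshold (-0.42 ± 0.13, adjusted p = 0.0524).

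Apoh encodes beta-2 glycoprotein I, an abundant plasma protein that binds anionic phospholipid. It stood at 8.25 and 8.42 in day 0 controls, at 8.15, 8.06 and 7.99 in day 0 mutants, at 8.38, 8.19 and 7.85 in day 2 controls and at 7.41, 7.33 and 7.66 in day 2 mutants. Mutants lay below the controls of their day on every array, by little at day 0. The difference was -0.26 ± 0.19 at day 0 (adjusted p = 0.555), -0.67 ± 0.17 at day 2 (adjusted p = 0.0259) and -0.47 ± 0.13 over both days (adjusted p = 0.0353). Over both days it was -0.45 (adjusted p = 0.0752) with the slide as a block, and it missed the threshold in 8 of the 11 fits without 1 array (adjusted p = 0.0521 to 0.14). Those were all but the fits without replicate 3 of control day 2, mutant day 0 or mutant day 2. Across all 23 alternatives the fall over both days passed in 10, with values from -0.6 to -0.25 and adjusted p up to 0.239. At day 2 it missed the threshold without replicate 1 or 2 of either genotype (adjusted p = 0.0825 to 0.0978). The day 2 value was -0.15 (adjusted p = 0.604) with quantile scaling and -0.18 (adjusted p = 0.591) in the authors' deposited table.

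Apoc3 encodes an inhibitor of lipoprotein lipase and of remnant uptake, and its gene lies between Apoa1 and Apoa4. It stood at 2.93 and 1.79 in day 0 controls, at 1.87, 1.39 and 2.90 in day 0 mutants, at 2.32, 2.73 and 4.14 in day 2 controls and at 2.20, 1.94 and 3.21 in day 2 mutants. The groups overlapped at both days, and arrays within a group differed by more than 1 log2 unit. The difference over both days was -0.46 ± 0.43 (adjusted p = 0.539), with a 95% confidence interval from -1.44 to 0.52. A fall as large as that of Apoa1 therefore lay inside the interval.

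At day 2, 6 of 10 members had fallen: Apom, Apoa2, Apoa5, Apoa1, Apoe and Apoh, against 6.35% of all genes tested, and none had risen, against 9.43%. Only Apoa5 fell under quantile scaling (-1.23, adjusted p = 0.0336) and in the authors' deposited table (-1.24, adjusted p = 0.0226), a count of 1 in each. With the array median as the reference the count was 6. The count was 2 without mutant day 2 replicate 2 and 3 without control day 2 replicate 2. Mutant arrays lay wholly below control arrays for 7 members at day 0 and 7 at day 2, while this held for 15.1% and 24.6% of all genes. For 6 members it held at both days, against 6.97% of all genes. No member passed the test of a difference in genotype effect between the days, a test passed by 0.27% of all genes, and at an unadjusted p under 0.05 there were 3: Apoa2 (-0.57), Apom (-0.59) and Apoa5 (1.27). The lowest adjusted p of the 3 was 0.294, that of Apoa5.

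**Figure D2:**
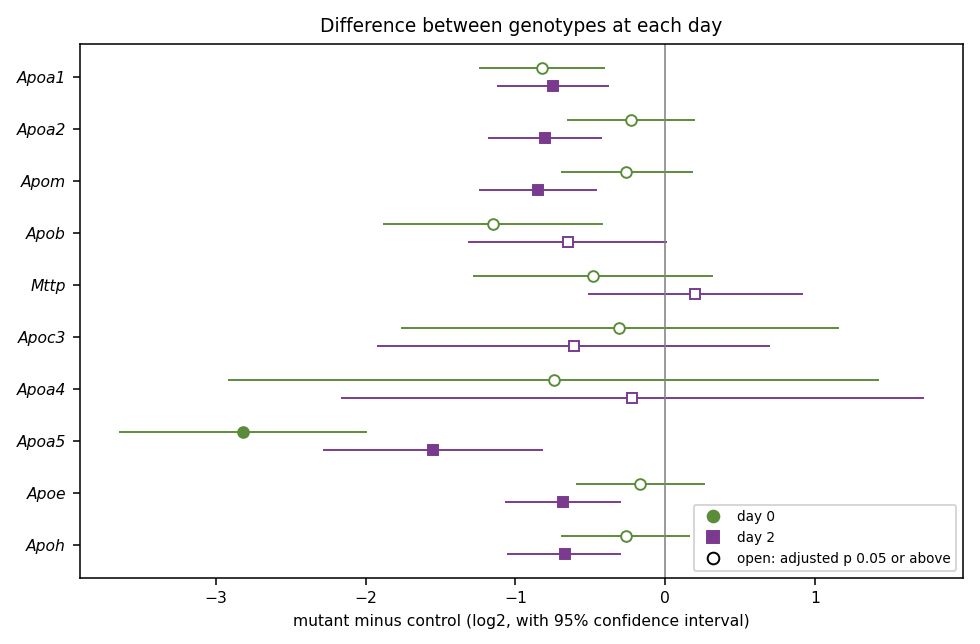
Mutant minus control for each gene at day 0 (green circles) and day 2 (purple squares) on a log2 scale, with 95% confidence intervals and filled symbols where the adjusted p was under 0.05. The Apoa1 and Apoa5 intervals lie wholly below 0 at both days, and Apoa1, Apoa2, Apom, Apoe and Apoh have filled symbols at day 2 only, a difference between days that passed no test.

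**Figure D3:**
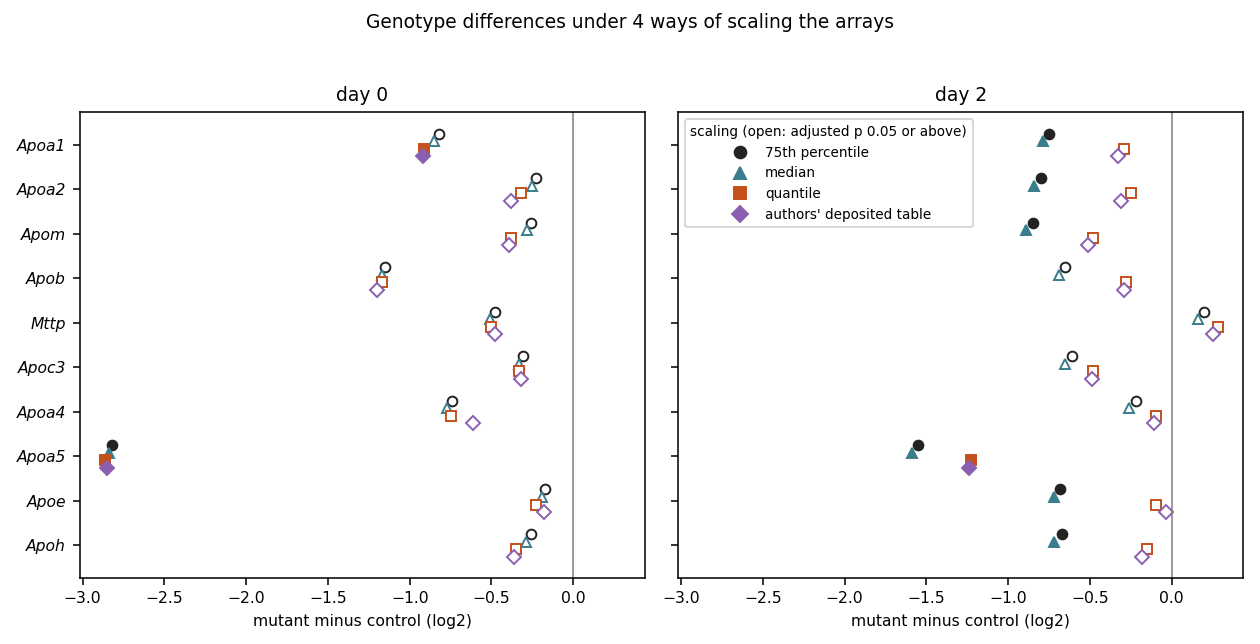
Mutant minus control (log2) at day 0, left, and day 2, right, under 75th percentile scaling, median scaling, quantile scaling and in the authors' deposited table, with filled symbols where the adjusted p was under 0.05. At day 2 quantile scaling and the deposited table place Apoa1, Apoa2, Apob, Apoe and Apoh between -0.33 and -0.032, while Apoa5 keeps filled symbols under all 4.

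Apoa4 encodes a protein of triglyceride-rich particles that is made mostly by gut in adult mice and by liver when lipid loads are high. It stood at -2.08 and -2.61 in day 0 controls, at -3.87, -3.61 and -1.79 in day 0 mutants, at 1.20, 2.59 and 4.95 in day 2 controls and at 2.71, 2.24 and 3.13 in day 2 mutants. Every day 2 array lay far above every day 0 array, and the genotypes overlapped at both days. The rise from day 0 to day 2 was 5.26 ± 0.96 in controls, 38.3-fold (adjusted p = 0.0128), and 5.78 ± 0.86 in mutants, 55.1-fold (adjusted p = 0.00406). The genotypes differed by -0.48 ± 0.65 over both days (adjusted p = 0.68), and the rises by 0.52 ± 1.29 (adjusted p = 0.897), with a 95% confidence interval from -2.38 to 3.43. Without control day 0 replicate 1 the rise in controls was 5.53 (adjusted p = 0.076), and without control day 0 replicate 2 it was 4.99 (adjusted p = 0.103).

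Gut epithelium was checked beside this rise, since it also makes Apoa4. Of 8 markers 4 were tested, and Cdx1, Cdx2 and Muc2 were well above background on at most 1 array and Fabp6 on none. The summed level of the 4 tested markers was 3.18 to 5.1 times the 75th percentile at day 0 and 16.4 to 30.6 at day 2. Fabp2, the intestinal fatty acid binding protein, carried that change, rising by 2.51 in controls (adjusted p = 0.0157) and by 4.12 in mutants (adjusted p = 0.000928). None of the other 3 passed the test as higher at day 2. Lct, the milk sugar enzyme of gut, fell by 1.32 in controls (adjusted p = 0.0292) and differed by 0.46 in mutants (adjusted p = 0.247). Alpi, the intestinal alkaline phosphatase, fell by 1.5 in mutants (adjusted p = 0.012) and differed by -0.30 in controls (adjusted p = 0.597). Vil1, the brush border protein villin, differed by -1.04 in controls (adjusted p = 0.101) and -0.70 in mutants (adjusted p = 0.153).

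Apoa4 was the only member that rose with age in controls, where 5.14% of all genes rose. In mutants 4 members rose, against 9.02% of all genes: Apoa4, Apoa5 (2.27 ± 0.33, 4.82-fold, adjusted p = 0.00346), Apob (1.19 ± 0.29, adjusted p = 0.0228) and Mttp (1.06 ± 0.32, adjusted p = 0.0446). Apoh fell there (-0.60 ± 0.17, adjusted p = 0.0355), as did 11% of all genes. In controls Apoa5 differed by 1.00 ± 0.36 (adjusted p = 0.107), Apob by 0.69 ± 0.33 (adjusted p = 0.197) and Mttp by 0.37 ± 0.35 (adjusted p = 0.517). The Apoa5 probe printed above gave 1.39 ± 0.34 in controls and passed the threshold over probes (adjusted p = 0.0361). The sexes were not balanced by age: mutants were 3 females at day 0, and 2 females and 1 male at day 2. Controls were 2 males at day 0, and 1 male and 2 females at day 2. With pup sex as a covariate the count in mutants was 2, Apoa4 and Apoa5, and Apob, Mttp and Apoh missed the threshold. With the slide as a block the count in mutants was 3, without Apoh (adjusted p = 0.0562) and Mttp (adjusted p = 0.0559). Without mutant day 0 replicate 3 the rise of Apoa5 was 2.06, that of Apob 0.95 and that of Mttp 1.08 (adjusted p = 0.0065, 0.0448 and 0.0696). Apob missed the threshold without mutant day 0 replicate 2 or mutant day 2 replicate 1 or 3 (adjusted p = 0.0565 to 0.0846). Of the 11 fits without 1 array, Mttp passed in 2, those without control day 2 replicate 1 or 3, and Apoh in 3, those and the fit without mutant day 0 replicate 3. Scaling on the array median shifted the median of all genes by age from -0.02 to 0.18 in controls and from -0.0048 to 0.18 in mutants. It turned the split of genes that rose and fell from 819 and 870 to 1176 and 444 in controls, and the fall of Apoh became -0.42 (adjusted p = 0.11). Apoe by age in mutants changed sign with scaling, from -0.15 (adjusted p = 0.539) to 0.39 (adjusted p = 0.0475) under quantile scaling.

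Across the 11 arrays the pairs of members with the highest correlation were Apoa2 and Apom (r = 0.969), Apoa5 and Apob (r = 0.922), Apoe and Apom (r = 0.916) and Apoa2 and Apoh (r = 0.914). Mttp and Apoh ran opposite (r = -0.612). The arrays share their 4 groups, so these values describe the groups as much as the pups. Among all genes, Apoa5 was closest to Cisd1 (r = 0.976), Aldh8a1 (r = 0.974) and Cyp2c37 (r = 0.973). Apoh was closest to the complement gene C3 (r = 0.979), Apoa2 and Apom both to the complement gene C8g (r = 0.966 and 0.953), and Apob to Uroc1 (r = 0.974). Apoe was closest to Hyi (r = 0.95) and Smap1 (r = 0.935), and then to Apoc1, its neighbour in the genome (r = 0.928). Apoc3 was closest to Mia2 (r = 0.932) and next to Fgf21, a liver hormone of the suckling and fasted states (r = 0.901). For Apoa1 the closest was Scap (r = 0.968), for Apoa4 Usp9x (r = 0.975) and for Mttp Cpsf1 (r = 0.935), all over 11 arrays.

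Of 10 other apolipoproteins tested, 5 fell and 1 rose over both days, against 6.69% and 8.64% of all genes, and the list's median was -0.38. Apoc4 and Apoc1, neighbours of Apoe, fell by 1.05 ± 0.19 (adjusted p = 0.00643) and 0.73 ± 0.16 (adjusted p = 0.015). Apoc4 averaged 6.57 in day 2 controls and 5.34 in day 2 mutants. Apof fell by 0.94, Apon by 1.76 and the acute phase protein Saa1 by 0.54. For Apoc1 the authors' deposited table gave -0.36 (adjusted p = 0.119), and the Saa1 call held in 10 of 23 alternatives (adjusted p up to 0.328). Clu, the chaperone also called apolipoprotein J, rose by 1.10 ± 0.18 (adjusted p = 0.004), from a mean of 4.79 in day 2 controls to 6.32 in day 2 mutants. Apod was not well above background on every array of any group and was not tested.

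Among 20 genes that load lipid into VLDL or secrete it, 2 fell, none rose, and the median was -0.073, beside 6.69% of all genes that fell and 8.64% that rose. A count of 2 is near that background. Ces1d, a triglyceride hydrolase, fell by 1.54 ± 0.29 (adjusted p = 0.00708), with means of 5.57 in day 2 controls and 3.89 in day 2 mutants. Aadac, another lipid esterase, fell by 0.52 (adjusted p = 0.0195), but by 0.38 (adjusted p = 0.0751) with quantile scaling. At day 2 alone 3 fell and 1 rose, beside 6.35% and 9.43% of all genes. Those that fell were Ces1d by 1.68 (adjusted p = 0.0179), Aadac by 0.55 (adjusted p = 0.0472) and P4hb, the partner subunit of Mttp, by 0.52 ± 0.15 (adjusted p = 0.0464). P4hb missed the threshold over both days (-0.16, adjusted p = 0.388). Sort1, a sorting receptor for apolipoprotein B, rose at day 2 (1.19 ± 0.3, adjusted p = 0.0291) and missed the threshold over both days (0.54, adjusted p = 0.15).

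Of 15 plasma lipases, transfer proteins and efflux genes tested, 3 fell and none rose, with a median of -0.41. The shares over all genes were 6.69% and 8.64%. Pon1, the HDL-bound paraoxonase, fell by 2.82 ± 0.36, 7.04-fold (adjusted p = 0.00104), from a mean of 5.66 to 2.59 at day 0 and from 6.1 to 3.54 at day 2. Lcat, which esterifies cholesterol on HDL, fell by 1.07 ± 0.2 (adjusted p = 0.00656). Abcg5, a sterol exporter, had a difference of -1.78 ± 0.53 that missed the threshold (adjusted p = 0.0513). Pon1 and Lcat kept close values with quantile scaling (-2.71 and -1.02) and in the authors' deposited table (-2.72 and -1.03). Lipg was not tested. Among 10 lipoprotein receptors, the remnant receptor Lrp1 fell by 0.76 ± 0.14 (adjusted p = 0.00717) and the lipolysis-stimulated receptor Lsr rose by 0.62 ± 0.15 (adjusted p = 0.02). The other 8 did not pass, and a count of 1 in each direction is near the shares over all genes. With pup sex as a covariate, Apon, Lrp1 and Lsr missed the threshold (adjusted p = 0.0576 to 0.0847).

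Of 22 transcription factors known to act on apolipoprotein genes, 3 rose and 4 fell, with a median of -0.32. The shares over all genes were 8.64% and 6.69%. Among them, Foxa1 and Nr5a2 rose by 0.95 and 0.68 (adjusted p = 0.0195 and 0.0175). The nuclear receptors Ppara, Rxra and Nr0b2 fell by 0.77, 0.83 and 2.02 (adjusted p = 0.0136, 0.0145 and 0.0279). Cebpa fell by 0.64 (adjusted p = 0.0128). Hnf4a, a main activator of apolipoprotein genes in hepatocytes, differed by -0.57 ± 0.19 and missed the threshold (adjusted p = 0.0793). Nr2f1 was not tested. Of these, the rises of Foxa1 and Nr5a2 and the falls of Ppara, Rxra and Cebpa missed the threshold with pup sex as a covariate (adjusted p = 0.072 to 0.114). The fall of Nr0b2 was not examined with that covariate or under any other alternative.

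**Figure D4:**
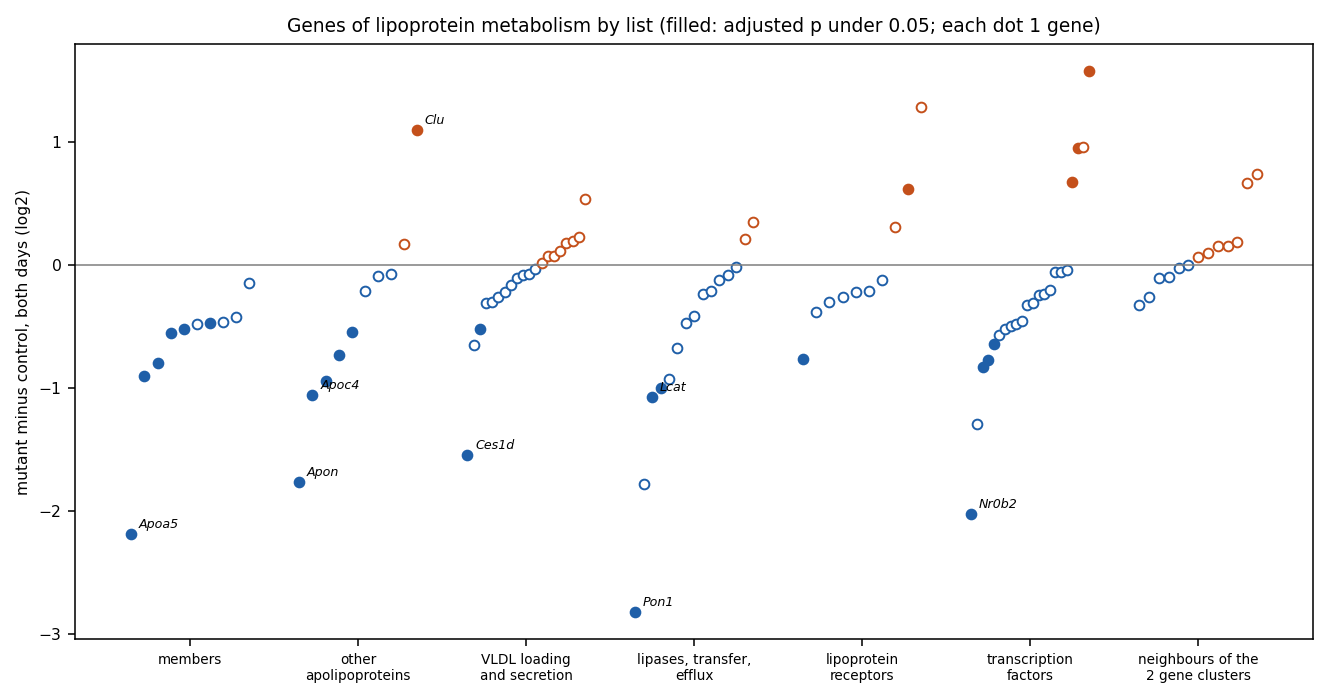
Mutant minus control over both days (log2) for the 10 members and for each tested gene of the 6 lists, each dot 1 gene, with filled dots where the adjusted p was under 0.05. All 10 members lie below 0, and the 13 genes beside the Apoa and Apoe clusters hold no filled dot.

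The 13 genes beside the Apoa cluster and the Apoe cluster gave no call over both days (limma, with 2 at an unadjusted p under 0.05: Bcam and Sik3), and their median was 0.07. At day 2, Bcam rose by 1.15 (adjusted p = 0.0387) and the smooth muscle gene Tagln fell by 1.08 (adjusted p = 0.041). A count of 1 in each direction is near the day 2 shares over all genes, 9.43% higher and 6.35% lower.

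Windows of 250 bases before the start of transcription were read from RefSeq on GRCm38.p6 for 9 of the 10 members, 13 windows in all. On both strands 4 motifs were searched. The forkhead (FOXA) letters TGTTTAC occurred before Apoa2 and Apoh, and in 3.17% of all 32851 windows. The other motifs were found before none of the 9 members: GTGGGAA, bound by the Notch partner RBPJ (5.42% of all windows), CAAAGTCC of HNF4 (1.2%) and TTGCGNAA of CEBP (0.67%). That says only that these letters are not in these windows. The windows with a match are shown, and capitals mark the forkhead letters. They lie on the plus strand at chr1:171224804-171225053 for Apoa2 and chr11:108395047-108395296 for Apoh. The other Apoa2 window, at chr1:171221314-171221563, held no match. Neither did the windows of Apom, Apoa5, Apoa1 and Apoe, which also fell at day 2. A link between these letters and the falls was not tested.
Apoa2 window: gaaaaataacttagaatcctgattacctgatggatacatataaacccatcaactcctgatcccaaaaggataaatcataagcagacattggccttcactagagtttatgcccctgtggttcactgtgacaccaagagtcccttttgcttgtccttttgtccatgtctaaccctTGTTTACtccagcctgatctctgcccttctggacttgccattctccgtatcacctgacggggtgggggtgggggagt
Apoh window: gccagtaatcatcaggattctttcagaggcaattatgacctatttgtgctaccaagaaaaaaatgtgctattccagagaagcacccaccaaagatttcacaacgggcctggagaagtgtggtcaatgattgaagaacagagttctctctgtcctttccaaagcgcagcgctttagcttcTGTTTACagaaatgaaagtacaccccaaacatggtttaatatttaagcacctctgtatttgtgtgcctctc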

How the data were processed

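Liver RNA of 11 newborn mice was labelled with Cy3 alone, per the labels' protocols, and read on 1-colour Agilent arrays (design 014868). Per the file headers, the deposited spot intensity is the signal of Feature Extraction 9.5.3.1 after background subtraction and detrending within each array. A table of log2 values, made by the authors with RMA, per the submitters' processing notes (settings not given in the sources used here), was used as an alternative.

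Here log2 of the processed signal minus the array's 75th percentile over non-control spots was taken. Control and outlier-flagged spots were dropped and spots of a probe averaged. Probes entered the test where 1 group or more had them well above background throughout (27151 of 41174). A gene was read from its brightest tested probe that was not saturated on all arrays. Symbols came from RefSeq through accessions for 23374 probes, symbols for 6733 and synonyms for 2919; 1845 kept the file's name and 6303 had none. The 75th percentile signal ranged from 607.7 to 1302 and the number of arrays limits the precision. One coefficient per group was fitted with limma 3.58.1 in R 4.3.3 (7 residual and 2.38 prior degrees of freedom) over 18226 features, with Benjamini-Hochberg adjustment over 15945 genes; tests are two-sided. In simulated arrays with 15730 genes and 100 genes lowered by 2 and 100 by 1 log2 unit over both days, the fit called 87 and 62 of them, and 7 of 15530 unchanged genes. The simulated arrays had independent normal noise, no slide effect, no outlying array and far fewer changed genes than were called here. Those rates therefore need not hold for the real arrays.

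The members, pathway lists and markers were chosen with earlier results of these data known. In each list up to 5 genes with the smallest p over both days, and up to 3 in the difference between days, could be named with values; other called genes of a list, and Hnf4a, were named after their values were seen. For each member up to 3 genes of highest correlation were ranked. The alternatives were normexp background correction (offset 50), quantile and median scaling, the authors' table, 2 other filters on dim probes, the mean of a gene's probes, saturated or flagged spots treated otherwise, the slide as a block, pup sex, another variance model and leaving out each array. Replicate numbers equal slides per the file headers. Same-numbered day 2 controls and mutants deviated together (r = 0.226 to 0.281), while same numbers in the other group pairs gave -0.0342 to 0.127. The numbers were therefore taken to pair the day 2 arrays. The main fit did not include that pairing. It entered only in the fit with the slide as a block and in the differences within slides. Other day 2 pairings gave -0.213 to -0.0511. Deviations from a group mean sum to 0, so these negative values are not separate evidence. Values of some list genes are counted but not reported here.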

Additional observations from a re-analysis of the deposited data

How the results depend on the processing

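The members and the list genes of smallest p were examined under 23 alternatives, without Nr0b2 and Hnf4a. Over both days 2 members were called with quantile scaling and 3 with the slide as a replicate block, against 6. At day 0 normexp, quantile scaling, the authors' deposited table and the trend and robust variance model each gave 2, against 1. At day 2 quantile scaling and the authors' deposited table each gave 1, against 6. For day 2 against day 0 in mutants the count of 5 became 3 without a filter on dim probes, 3 with the replicate block and 2 with pup sex. Leaving out 1 array gave 2 to 7 members over both days, 0 to 2 at day 0, 2 to 6 at day 2, 0 to 1 by age in controls and 2 to 6 by age in mutants. The difference between the days gave 0 under every alternative. By age in mutants Apoe turned from -0.15 to 0.39 with quantile scaling, the 1 reversal among called member values. A further 44 member values, 39 list values and 14 probe values that were not called on either side changed sign. The cause of these changes was not tested. The replicate block changed the calls of Apoa2, Apob and Apoh over both days, Apoe at day 2, Apoh and Mttp by age in mutants and Saa1 in the lists, and no other call of a member. Over all genes the calls over both days ranged from 690 to 2046 higher and from 322 to 1929 lower. Saturation limits Apoe, and 2 day 0 controls limit every comparison that uses day 0.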
